A study of Mus musculus with 9 samples.

Results

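MicroRNAs (miRNAs) were compared between mouse osteoblastic cells given 1 Gy and 0.5 Gy of alpha particles. The comparison took the arrays whose titles carry the doses 0.5 and 1 Gy, 3 per dose, which are 6 of the 9 arrays of the series. It asked which miRNAs differ between the higher and the lower dose, with the 3 arrays of 0 Gy shown for reference. Cells were grown from the bone marrow of male C57BL/6 mice aged 8 weeks, kept in culture for 7 days, and then held for 7 days in a medium with β-glycerol phosphate, ascorbic acid phosphate and dexamethasone, which drives osteoblast differentiation. All 3 dose groups share this culture, and the irradiated groups share a dose rate of 0.22 Gy per minute. Nothing in the labels ties the 3 arrays of a dose to different animals or culture dishes, so each p-value measures the spread between these samples alone, and that spread may be technical. How long after irradiation the RNA was taken is not given in the sources used.

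A miRNA is a short RNA that guides a silencing complex to messenger RNAs, chiefly through its seed, bases 2 to 8 of the mature strand. miRNAs with one seed can share targets. In osteoblasts, miRNAs act on the regulators of bone formation such as Runx2, and after ionising radiation some miRNAs follow p53 or act on the repair of DNA breaks. Alpha particles deposit their energy densely along short tracks, which leaves clustered DNA damage. Each array held probes for 1881 mouse miRNAs. Levels are given as log2 of the scaled signal, with a floor at 3.52 below which values have no order. Differences are 1 Gy minus 0.5 Gy on this scale, so that 1 is a doubling and a positive value is higher at 1 Gy. Detection of a miRNA on an array required 1 or more probes with 50% or more of their spots well above background, and a miRNA may read above the floor without being detected.

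The miRNAs that the comparison turns on are shown as RefSeq mature sequences (assembly GRCm38.p6, written 5′ to 3′), with the seed in capitals. The first set holds miRNAs with higher mean levels at 1 Gy, among them the members of the miR-3473 family that were tested.
miR-3473a: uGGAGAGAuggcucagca
miR-3473b: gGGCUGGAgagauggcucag
miR-3473e: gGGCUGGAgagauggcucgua
miR-3473g: cAAAAGUGaggcuggggaga
miR-7005-5p: cCUGGGGAugggaggaccagca
miR-3963: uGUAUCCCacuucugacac
miR-690: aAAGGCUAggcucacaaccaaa
miR-6366: aGCUAAGGggcccggggagcca
The second set holds miRNAs with lower mean levels at 1 Gy.
miR-30a-5p: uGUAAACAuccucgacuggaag
miR-221-3p: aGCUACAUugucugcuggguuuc
miR-5113: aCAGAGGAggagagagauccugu
miR-3473a and miR-3473b share a run of 16 bases, uggagagauggcucag, which no other miRNA of the array with a RefSeq sequence holds. miR-3473b and miR-3473e share the seed and a run of 18 bases, gggcuggagagauggcuc. Signal from such close relatives may be split between their probes, so values of single members are uncertain. Despite this likeness the genes lie apart, with Mir3473b on chromosome 10 within the span of Ccdc162, Mir3473a on X within Syap1 and Mir3473e on chromosome 5 within Rbks. Mir7005 lies within the span of Lama5 on chromosome 2 and Mir690 within Fgf12 on chromosome 16.

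Before the results, 4 arrays need description. On array 1 of 0.5 Gy and array 1 of 1 Gy the scanner software estimated an additive error of 19.4 and 11.2, against 1.60 to 2.45 on the other 4 irradiated arrays. The net signal of the negative controls was 88.4 and 60.7 there, and 21.0 to 25.3 on the other 4. The signal of the labelling spike-in control, in log10, was 0.829 on array 1 of 0.5 Gy alone. It was 1.93 on array 1 of 1 Gy and 1.96 to 2.13 on the other 4. The part of labelling in the differences between arrays 1 was not tested. Over the 205 miRNAs tested below, levels of the arrays numbered 1 correlated with each other at r = 0.96 and with the other 4 at r = 0.17 to 0.66. The other 4 correlated among themselves at r = 0.89 to 0.97. Array 3 of 0.5 Gy, in turn, matched array 3 of 0 Gy more closely than any other pair of the 9 arrays matched. The SD of their log2 differences was 0.17 with 0 of 205 miRNAs differing by over 1, while the next closest pair, arrays 2 and 3 of 0.5 Gy, had an SD of 0.48 with 10 such miRNAs. The labels do not tell whether these arrays of 0 and 0.5 Gy could hold the same RNA or a mistaken label, which was not tested, and every difference between the arrays numbered 3 rests on them being what their labels say. Array 3 of 1 Gy stood nearer to the arrays numbered 1 (r = 0.50 and 0.66) than arrays 2 of both doses and array 3 of 0.5 Gy did (r = 0.17 to 0.42). Correlations across miRNAs describe these arrays, and miRNAs are not independent replicates. The results are therefore given per array, and for the miRNAs and lists that turn on single arrays also without those arrays.

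**Figure D1:**
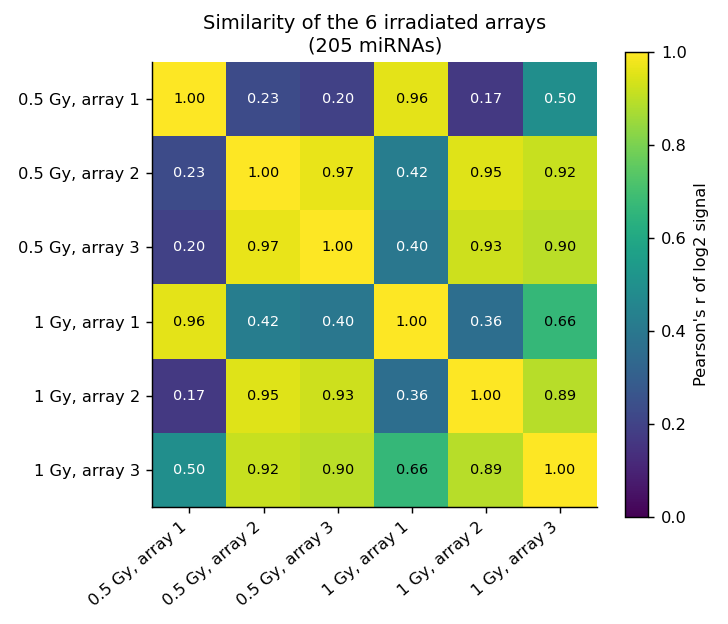
Pearson's r of log2 levels between each pair of the 6 irradiated arrays over 205 miRNAs, with colour from 0 to 1. The arrays numbered 1 of both doses match each other (0.96) and differ from the other 4 (0.17 to 0.66).

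The miRNAs detected on the arrays numbered 1 also differed in base composition from those detected on the others. Of 134 miRNAs detected on both of them, 73 were detected on none of the other 4, and of 140 detected on all of the other 4, 100 were detected on neither. The 73 were rich in pyrimidines, with a median of 72.7% C and U, 42.9% C and 14.0% G over the 62 that have a RefSeq sequence. The 100 had a median of 36.6% C and U, 17.4% C and 40.9% G over 90 with a sequence. Across the array the medians were 50% C and U and 22.7% C over 1608. A further set of 32 miRNAs was detected on both arrays numbered 1 and on array 3 of 1 Gy and on no other irradiated array. These had a median of 81.0% C and U over 28 with a sequence. Of the 32, 24 are named as 3p arms, against 58 of the 73, 28 of the 100 and 785 of all 1881 on the array. The base makeup of the 32 is shown by miR-207, miR-877-3p and let-7b-3p. They were chosen after their values were seen, for large differences between the arrays numbered 3. Seeds are in capitals.
miR-207: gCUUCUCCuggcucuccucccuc
miR-877-3p: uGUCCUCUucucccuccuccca
let-7b-3p: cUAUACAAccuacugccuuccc
miR-207 read 10.01, 3.59 and 3.52 on arrays 1, 2 and 3 of 0.5 Gy and 8.74, 3.52 and 5.69 on those of 1 Gy. It was thus high on array 1 of both doses, intermediate on array 3 of 1 Gy, and near the floor elsewhere. Over the 32 miRNAs the median difference was -1.19 between arrays 1, 0 between arrays 2 and 1.16 between arrays 3, with a median mean difference of 0.00094. The set was chosen by detection on these same arrays. The rise between arrays 3 and the 0 between arrays 2 therefore follow largely from that choice and are no separate result. miR-211-5p, listed among inhibitors of osteoblast differentiation, belongs to this set. It read 9.88, 3.95 and 3.52 at 0.5 Gy and 8.69, 3.52 and 5.48 at 1 Gy. The part of background and base composition in these values was not tested.

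Of the 1881 miRNAs, 414 were detected on at least 1 of the 6 irradiated arrays, 29 on all 6 and 1467 on none. At 0.5 Gy 384 were detected on any array and at 1 Gy 329, with 299 in both sets, which is 77.9% of the first and 90.9% of the second. Arrays 1, 2 and 3 of 0.5 Gy had 216, 173 and 195 detected miRNAs (mean 195 ± 21.5, SD, n = 3). Those of 1 Gy had 144, 223 and 178 (mean 182 ± 39.6, SD, n = 3). The groups overlapped, with an exact two-sided permutation p of 0.7. A design of 3 against 3 arrays cannot go below 0.1. No miRNA was detected on all arrays of one dose and on none of the other. In bulk RNA, fewer cells of a type and less RNA per cell cannot be told apart. Tests covered the 205 miRNAs detected on at least 3 of the 6 arrays, whatever their dose, and the other 209 detected miRNAs were not tested.

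No miRNA passed the test between 1 and 0.5 Gy. With limma over the 6 arrays 0 of 205 (0%) had an adjusted p under 0.05 and the smallest was 0.999 (Benjamini-Hochberg). Unadjusted, 0 lay under 0.05. With the replicate number as a block, which compares same-numbered arrays, 0 of 205 (0%) passed. Here 7 lay under 0.05 before adjustment, and after it the lowest value was 0.995. The mean difference was above 0 for 84 miRNAs and below 0 for 121, with a median of -0.033. The median standard error of a difference was 0.76, and 0.43 with the block. The split depends on the scaling, since 28.3% were higher when arrays were scaled on all probes (median -0.30), 8.29% after normexp background correction (median -0.25) and 65.9% without scaling (median 0.08), against 41.0% here.

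The miR-3473 family had the highest median difference of the lists examined. The lists were chosen with earlier results of these data known, so this rank is no independent support for a difference. The family was drawn by name prefix, and its members are not all close in sequence. Among those tested, miR-3473a, miR-3473b and miR-3473e share runs of 14 to 18 bases. miR-3473g shares runs of 5 or 6 bases with these. Of the 7 family members on the array 6 were detected on any irradiated array and 4 were tested. All 4 had a higher mean at 1 Gy, 0 of 4 passed the test, and their median difference was 0.90, against -0.033 over all 205. miR-3473b read 10.64, 11.56 and 10.12 on arrays 1, 2 and 3 of 0.5 Gy and 10.64, 13.00 and 12.14 on those of 1 Gy. The arrays 2 and 3 of 1 Gy were the highest, and the groups overlapped through array 1, which read alike at both doses. On the 0 Gy arrays it read 10.20, 9.50 and 10.14. Its mean was 10.77 ± 0.73 at 0.5 Gy and 11.93 ± 1.19 at 1 Gy (SD, n = 3), a difference of 1.16 (SE 0.76, 95% interval -0.70 to 3.01, limma unadjusted p = 0.177, adjusted p = 0.999). Between same-numbered arrays it differed by 0.00030, 1.45 and 2.02. Its 2 probes agreed, each giving a mean difference of 1.16. miR-3473b took 1.73%, 9.13% and 3.57% of the summed signal of detected miRNAs at 0.5 Gy and 3.63%, 17.1% and 13.3% at 1 Gy, a share that also moves with every other miRNA.

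miR-3473a, whose sequence lies almost wholly within that of miR-3473b, had the same order of arrays at 1 Gy. It read 5.50, 8.05 and 6.24 at 0.5 Gy and 6.09, 9.60 and 8.07 at 1 Gy. Its control arrays lay close together at 6.47, 6.17 and 6.23. Array 2 was the highest and array 1 the lowest of each irradiated group, and on array 1 of 0.5 Gy the miRNA was not detected. All 3 same-numbered differences were positive (0.59, 1.55 and 1.83), with a mean of 1.32 (95% interval -1.37 to 4.02, adjusted p = 0.999 with limma). Its spread within a dose, an SD of 1.31 at 0.5 Gy and 1.76 at 1 Gy, was as large as the difference. miR-3473e, which carries the miR-3473b seed, differed by 0, 1.47 and 0.46, with both arrays numbered 1 at the floor. miR-3473g differed by 0.34, 1.23 and -0.01. The pair medians of the family were 0.17, 1.46 and 1.14, and thus the smallest on arrays 1. Without array 3 of 0.5 Gy, the one that matched an array of 0 Gy, the family median was 0.74, miR-3473b differed by 0.83 and miR-3473a by 1.14. Array 2 of 1 Gy weighed more, since without it the family median was 0.24, miR-3473b differed by 0.62 and miR-3473a by 0.48. Leaving out an array numbered 1 moved miR-3473a to 0.77 (that of 0.5 Gy) or 2.24 (that of 1 Gy).

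**Figure D2:**
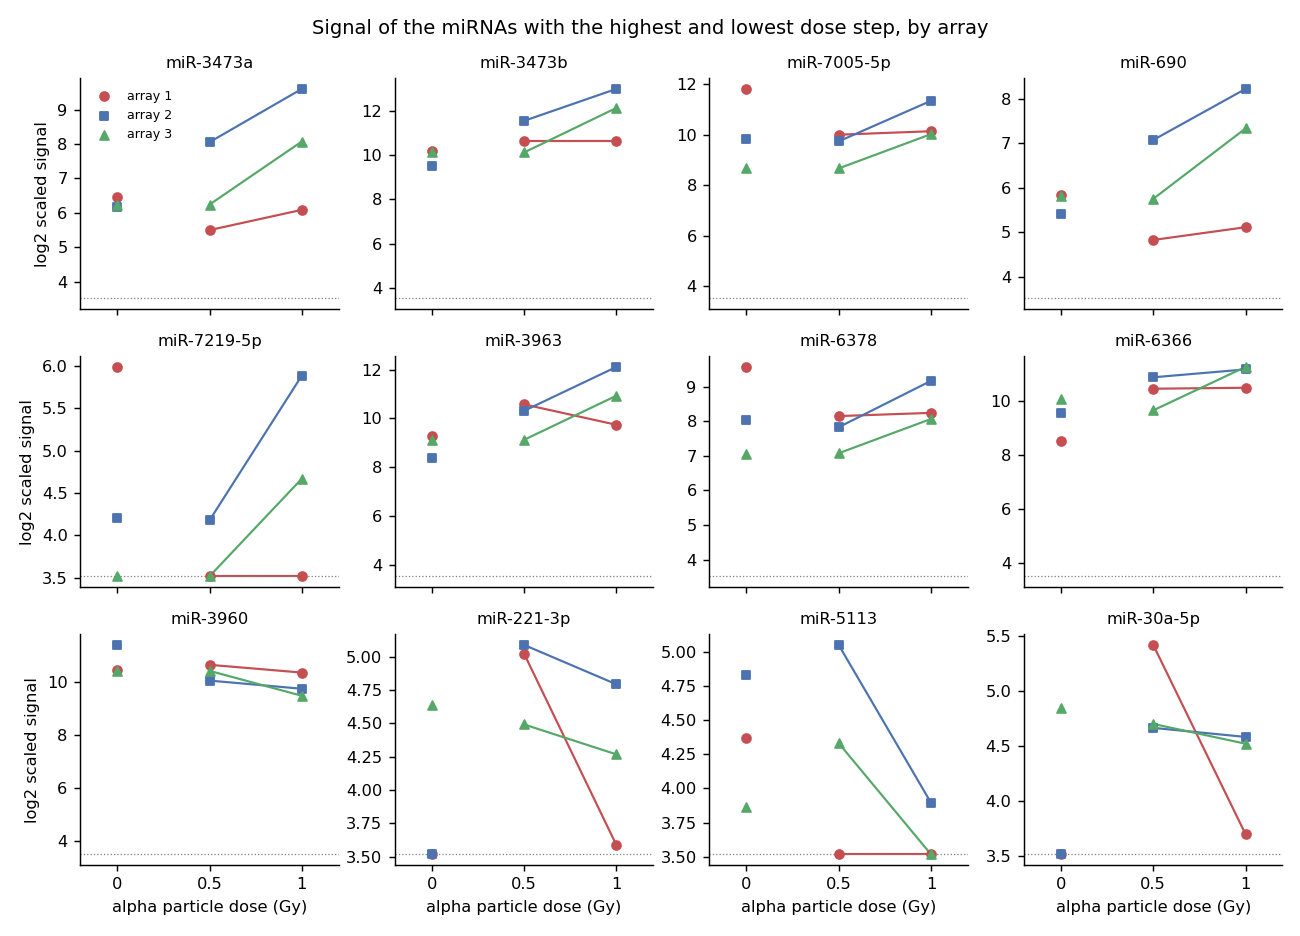
Log2 scaled signal of 12 miRNAs against alpha particle dose in Gy, with 1 symbol per array, lines joining same-numbered arrays of 0.5 and 1 Gy, and the dotted line at the floor of 3.52. For miR-3473b the lines of arrays 2 and 3 go up to 13.00 and 12.14 while that of array 1 stays at 10.64. Vertical axes differ between panels.

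miR-7005-5p was the one miRNA whose 3 arrays of 1 Gy all lay above its 3 arrays of 0.5 Gy (1 of 205, 0.488%). It read 9.99, 9.73 and 8.66 at 0.5 Gy and 10.13, 11.33 and 10.01 at 1 Gy. The gap between the groups was narrow, from 9.99 to 10.01. At 0 Gy it read 11.80, 9.81 and 8.66. The control range covered the 1 Gy group through array 1 of 0 Gy alone. Arrays 2 and 3 of 0 Gy lay below every 1 Gy array. That array 1 also stood apart over the 205 miRNAs. Its r with the irradiated arrays 2 and 3 was 0.68 to 0.72, against 0.81 to 0.996 for arrays 2 and 3 of 0 Gy. Between 1 and 0.5 Gy miR-7005-5p differed by 1.03 (SE 0.61, 95% interval -0.45 to 2.52). Its unadjusted p of 0.139 was the smallest of all, with an adjusted p of 0.999 (limma). Same-numbered arrays differed by 0.14, 1.60 and 1.36, and its 2 probes gave 0.99 and 1.04. It stood at 0.63 without array 3 of 0.5 Gy and at 1.48 without the arrays numbered 1. Dropping array 2 of 1 Gy gave 0.61.

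In 5 other miRNAs with higher means at 1 Gy, arrays 2 and 3 again gave larger differences than arrays 1. miR-3963 read 10.58, 10.31 and 9.12 at 0.5 Gy and 9.74, 12.12 and 10.93 at 1 Gy. It was lower at 1 Gy on array 1 (-0.84) and higher on arrays 2 and 3 (1.80 and 1.81), with a mean of 0.92 (SE 0.77). Leaving out array 3 of 0.5 Gy gave 0.48. At 1 Gy, leaving out array 2 gave 0.33 and leaving out array 1 gave 1.52. Its control arrays read 9.29, 8.36 and 9.13. miR-690 read 4.83, 7.07 and 5.75 at 0.5 Gy and 5.12, 8.22 and 7.33 at 1 Gy, and was detected on arrays 2 and 3 alone. Its same-numbered differences were 0.29, 1.15 and 1.58, and its mean 1.00 (SE 1.00), which was 0.34 without array 2 of 1 Gy. The level of miR-690 on array 2 of 0.5 Gy lay above that on array 1 of 1 Gy by more than its mean difference. miR-6378 differed by 0.09, 1.34 and 0.99 and miR-7219-5p by 0, 1.71 and 1.15, each seen through 1 of its 2 probes. miR-7219-5p lay at the floor on arrays 1 of both doses and on array 3 of 0.5 Gy. Its 0 is thus a tie at the floor, and its 1.15 is measured from the floor. Without array 2 of 1 Gy the mean differences of miR-6378 and miR-7219-5p were 0.47 and 0.36. miR-6366 read 10.45, 10.87 and 9.65 at 0.5 Gy and 10.48, 11.16 and 11.25 at 1 Gy. Its mean difference of 0.64 (SE 0.51) rested on arrays 3 (1.60), and it was 0.31 without array 3 of 0.5 Gy. None of these 5 passed the test, with unadjusted p from 0.179 to 0.352 and adjusted p of 0.999 each.

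Among the 17 named miRNAs, lower means at 1 Gy reached -0.66. miR-30a-5p, a member of the miR-30 family that acts on Runx2 and Smad1 and is listed as an inhibitor of osteoblast differentiation, was the one miRNA whose 1 Gy arrays all lay below its 0.5 Gy arrays (1 of 205, 0.488%). It read 5.42, 4.67 and 4.70 at 0.5 Gy and 3.70, 4.58 and 4.52 at 1 Gy. It was not detected on either array numbered 1, which gave the largest difference, -1.72, against -0.08 and -0.18 on arrays 2 and 3. Its mean difference of -0.66 (SE 0.48, unadjusted p = 0.219) was -0.13 without the arrays numbered 1. miR-221-3p, which acts on the cell cycle inhibitor Cdkn1b, read 5.02, 5.09 and 4.49 at 0.5 Gy and 3.59, 4.79 and 4.27 at 1 Gy. It too was undetected on arrays 1, where it differed by -1.44, and its difference of -0.65 (SE 0.49) was -0.26 without them. miR-5113 lay at the floor on arrays 1 and on array 3 of 1 Gy, and was seen through 1 of its 2 probes. It differed by -1.15 on arrays 2 and by -0.81 on arrays 3, the latter measured down to the floor. miR-3960, which with miR-2861 acts on repressors of Runx2 and favours osteoblast differentiation, was detected on all 6 arrays. It read 10.63, 10.04 and 10.41 at 0.5 Gy and 10.34, 9.73 and 9.47 at 1 Gy. All 3 pairs were lower at 1 Gy (-0.29, -0.31 and -0.94), the groups overlapped, and the mean difference was -0.51 (SE 0.45, adjusted p = 0.999).

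**Figure D3:**
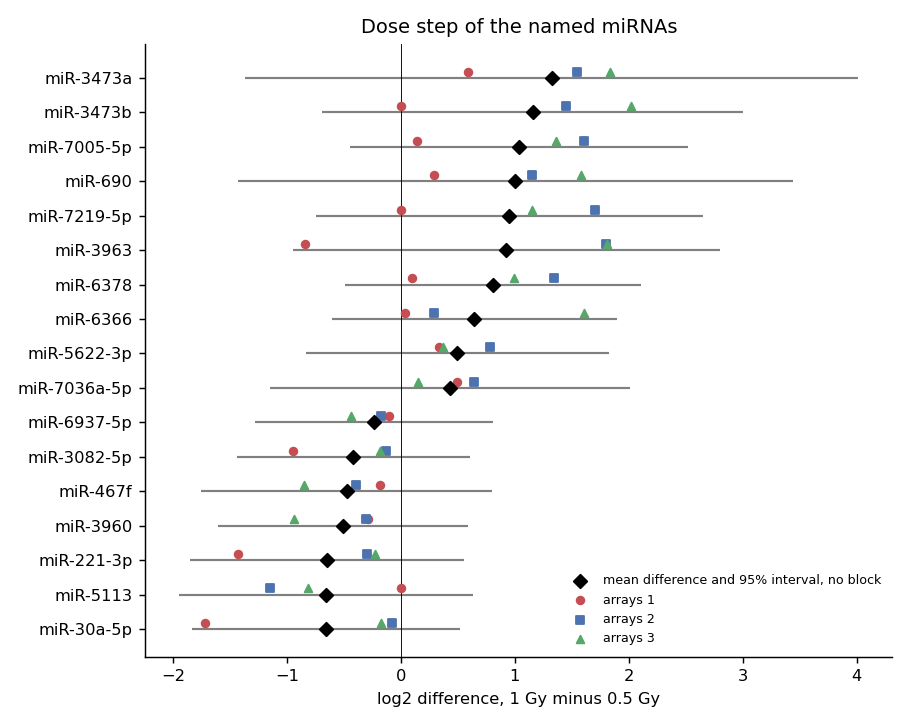
Difference in log2 signal, 1 Gy minus 0.5 Gy, of 17 named miRNAs, with the mean and its 95% interval from limma without the block (black) and the difference of each same-numbered pair of arrays (coloured symbols). Every interval crosses 0, and for miR-3963 the pair of arrays 1 lies at -0.84 while the others lie near 1.80.

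The 3 pairs of same-numbered arrays differed from one another in what they showed. Between arrays 1, 53 miRNAs were higher and 83 lower at 1 Gy, between arrays 2, 118 and 64, and between arrays 3, 72 and 133. On arrays 1, 69 of the 205 lay at the floor at both doses and so differed by 0, and arrays 2 also held such ties. These ties enter the medians, SDs and correlations over all 205. The median differences were 0, 0.07 and -0.20, with SDs over miRNAs of 0.74, 0.61 and 0.83. A difference over 1 in size was seen for 62, 29 and 45 miRNAs. Over all 205, the differences of arrays 1 and 3 correlated at r = -0.51, those of arrays 1 and 2 at 0.15 and those of arrays 2 and 3 at 0.10. The 32 miRNAs detected on both arrays 1 and on array 3 of 1 Gy alone were then set aside. Without them arrays 1 and 3 gave r = -0.20 over 173. The 32 were picked by detection, not by base composition. Their rise between arrays 3 follows largely from that pick, so a weaker r without them was partly built in. Over the 29 miRNAs detected on all 6 arrays, arrays 2 and 3 gave r = 0.67, arrays 1 and 2 gave 0.22 and arrays 1 and 3 gave -0.29. Of 82 miRNAs above the floor on all 6 arrays, 9 were higher and 11 lower in all 3 pairs. With independent random signs a share of 0.25 would have one sign in all 3 pairs. The counts together lie near that share, so one sign in all 3 pairs gives no support for a difference. The named miRNAs of one sign beyond those above differed less: miR-5622-3p by 0.33, 0.78 and 0.37, miR-7036a-5p by 0.49, 0.64 and 0.15, and miR-6937-5p by -0.10, -0.18 and -0.44. miR-3082-5p differed by -0.95, -0.13 and -0.18 and miR-467f by -0.18, -0.39 and -0.85. No miRNA differed by over 1 in all 3 pairs. In arrays 2 and 3 alike, 6 miRNAs were higher by over 1, namely miR-3963, miR-3473b, miR-3473a, miR-7005-5p, miR-7219-5p and miR-690, and 0 were lower by over 1. Of these, miR-7219-5p lay at the floor on array 3 of 0.5 Gy. With 3 pairs, an exact two-sided sign-flip test cannot go below 0.25.

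**Figure D4:**
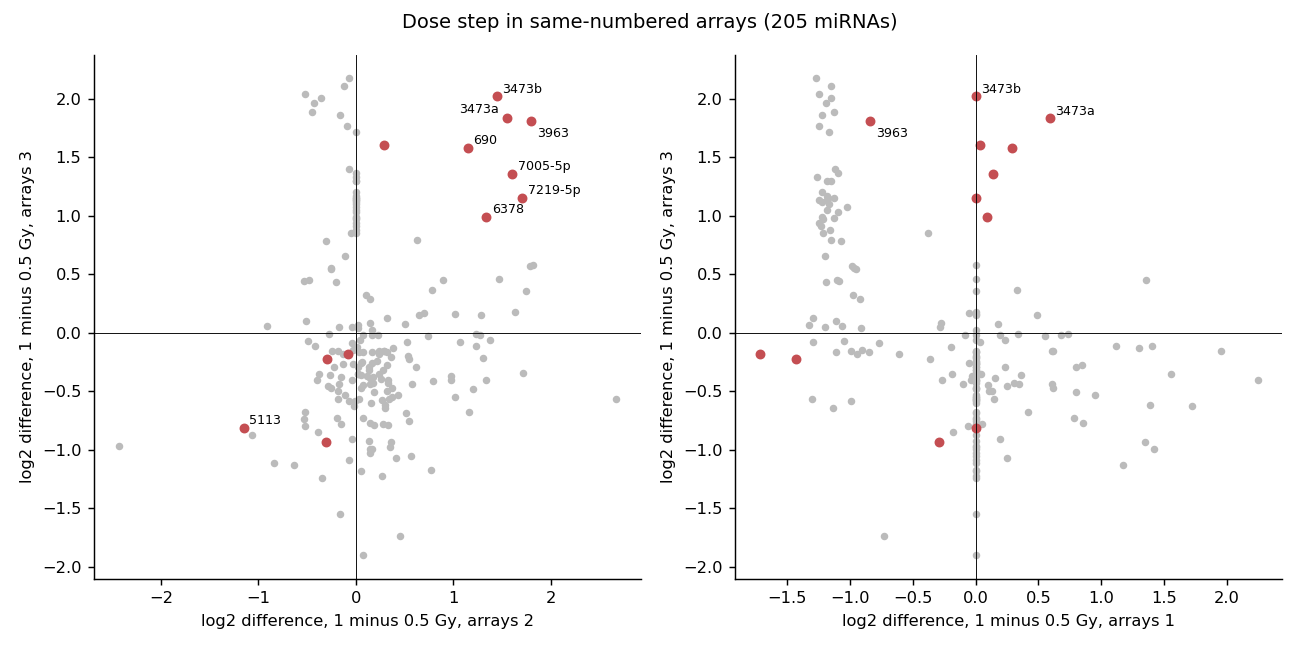
Log2 difference, 1 Gy minus 0.5 Gy, of 205 miRNAs in arrays 3 (vertical) against arrays 2 (left) and arrays 1 (right), with the 12 miRNAs of the level plot in red. The 6 miRNAs over 1 in arrays 2 and 3 sit at the upper right of the left panel. At the right, the column of points near -1.2 in arrays 1 holds the 32 miRNAs picked by detection on both arrays 1 and array 3 of 1 Gy alone. Their median in arrays 3 is 1.16, a rise that follows largely from that pick.

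Calls appeared when the block was combined with a stricter detection filter, another variance model or fewer arrays. Among 40 miRNAs that every array of at least 1 of the doses detected, the blocked limma fit called 3 (7.5%), miR-3473b (adjusted p = 0.0237), miR-7005-5p (0.0471) and miR-3473a. All 3 arrays of 1 Gy detected 39 of the 40, and all 3 of 0.5 Gy detected 30. miR-3473a entered through the 1 Gy arrays alone, where it is high, so its call in this set is no test of the difference. Among the 29 detected on all 6 arrays it called 2 (6.9%), miR-3473b (adjusted p = 0.0333) and miR-7005-5p (0.0487). With a trended and robust variance the blocked fit called miR-3473a (adjusted p = 0.0108), miR-3473b (0.0322) and miR-7005-5p (0.0430), which are 3 of all 205 (1.46%). Without the arrays numbered 1 the blocked limma fit called 4 of 195 (2.05%), miR-3963 (1.81), miR-3473b (1.73) and miR-3473a (1.69) as higher and miR-6931-5p (-1.70) as lower at 1 Gy, each at an adjusted p of 0.0139. miR-6931-5p, named after its values were seen, had a mean difference of -1.13 over the 6 arrays. It read 3.52, 8.80 and 5.80 at 0.5 Gy and 3.52, 6.37 and 4.84 at 1 Gy. The same arrays without the block called 0 of 195 (0%), with 14 unadjusted p under 0.05 and a smallest adjusted p of 0.244. In these blocked fits limma assigned every miRNA one standard error, 0.34 for the sets of 40 and 29 and 0.46 without the arrays numbered 1. Over the 40 alternatives tried, the adjusted p of miR-3473b ran from 0.0139 to 1, that of miR-3473a from 0.0108 to 1 with the set of 40 left aside, that of miR-7005-5p from 0.0430 to 1 and that of miR-3963 from 0.0139 to 1.

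Lists of miRNAs with known roles had medians from -0.46 to 0.01 apart from the miR-3473 family, and 0 members of any list passed the test in either fit. Of the 10 members of the let-7 family, which restrains growth genes such as Ras and Hmga2, 8 were tested, 3 higher and 5 lower at 1 Gy, with a median of -0.04. let-7b-5p read 9.62, 10.14 and 10.87 at 0.5 Gy and 9.66, 10.16 and 10.52 at 1 Gy, a difference of -0.10 (SE 0.51). let-7a-5p, let-7c-5p and let-7f-5p differed by 0.02, -0.09 and 0.16. In these 4 let-7 miRNAs array 1 was the lowest at both doses. They share the seed printed in capitals, and each sequence is close to the others.
let-7a-5p: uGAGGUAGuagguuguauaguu
let-7b-5p: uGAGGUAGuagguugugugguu
let-7c-5p: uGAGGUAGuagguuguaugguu
let-7f-5p: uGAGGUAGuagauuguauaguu
Whether the probes tell these members apart was not tested.

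Radiation-linked lists were little detected. Of 15 p53-responsive miRNAs 14 are on the array and 3 were tested, all with lower means at 1 Gy and a median of -0.07. miR-34a-5p, a direct target of p53, read 6.07, 6.24 and 6.55 at 0.5 Gy and 5.30, 6.20 and 6.47 at 1 Gy, which gave -0.30 (SE 0.48) and differences of -0.04 and -0.09 on arrays 2 and 3. It was not detected on the arrays numbered 1. miR-34b and miR-34c were detected on none of the 6 arrays. Of 10 miRNAs listed for DNA damage and repair 2 were tested, miR-24-3p, which acts on H2ax, at -0.13 and miR-21a-5p, which acts on Pdcd4, at 0.16. Both lay at the floor on arrays 1 of both doses, so that their means include a difference of 0 set by the floor. miR-21a-5p differed by 1.01 on arrays 2 and -0.54 on arrays 3. The miR-15/16 family, known for acting on Bcl2 and cyclins, had 3 members tested, all lower, with a median of -0.17, the lowest being miR-497a-5p at -0.40 (SE 0.43). In the miR-17 and miR-106b-25 clusters miR-92a-3p differed by -0.51 (SE 0.95) and miR-93-5p by -0.03. Of the NF-kB and inflammation list miR-125a-5p differed by -0.36 (SE 0.57), and by -0.91, -0.03 and -0.15 in the pairs.

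Bone-linked lists gave the same picture. Of 13 osteoblast-promoting miRNAs 5 were tested, all with lower means at 1 Gy, with a median of -0.04 and, apart from miR-3960, values from -0.17 (miR-15b-5p) to -0.01 (miR-29a-3p). miR-2861 differed by a mean of -0.04 and by 0.61, -0.25 and -0.47 in the pairs. Of 19 osteoblast-inhibiting miRNAs 8 were tested, 3 higher and 5 lower, with a median of -0.01. miR-125b-5p read 8.46, 9.10 and 9.26 at 0.5 Gy and 8.18, 9.24 and 9.34 at 1 Gy, a difference of -0.02 (SE 0.52). miR-214-3p, which acts on Atf4, differed by 0.20 (SE 0.66) and miR-23a-3p, which acts on Runx2, by -0.01 (SE 0.72). For these last 3 miRNAs a difference of 1 in either direction lay within the 95% interval, so a change of that size was not detectable at this spread.

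The list drawn by name prefix from the Sfmbt2 cluster, a large group of repeated miRNAs in an intron of Sfmbt2, had a median of -0.46, with 5 of 61 members tested, 1 higher and 4 lower. Its lowest values came from miR-466q, at -0.53 (SE 0.57), and miR-467f, at -0.48 (SE 0.52), which RefSeq places outside the cluster, Mir466q within Tnik on chromosome 3 and Mir467f within Fxr2 on chromosome 11. Of the other members miR-466h-3p differed by -0.46 (SE 0.49) and miR-669p-3p by -0.19 (SE 0.78), while miR-466i-5p differed by 0.07 (SE 0.38). miR-467f turned to 0.50 when the total gene signal of the scanner software was used. Of 39 Dlk1-Dio3 miRNAs on the array, an imprinted group, 2 were tested. miR-494-3p read 11.34, 11.07 and 10.48 at 0.5 Gy and 10.96, 11.02 and 11.34 at 1 Gy, a difference of 0.14 (SE 0.43), and miR-370-3p differed by -0.29.

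**Figure D5:**
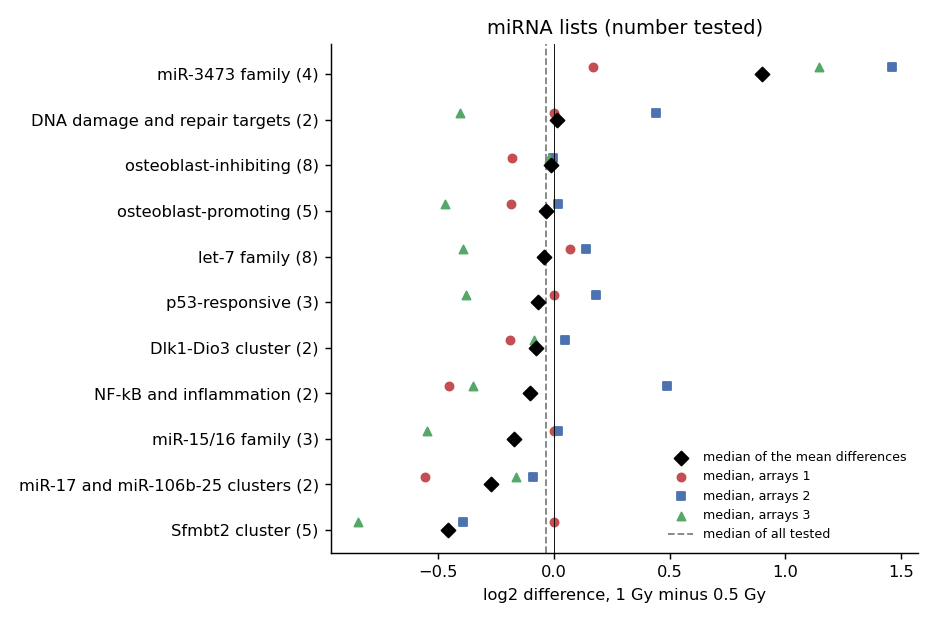
Median log2 difference, 1 Gy minus 0.5 Gy, over the tested members of 11 miRNA lists (number tested in brackets), for the mean of the arrays (black) and for each same-numbered pair, with the median of all 205 dashed. The miR-3473 family lies at 0.90, and the other lists lie between -0.46 and 0.01, with pair medians on both sides of 0 for most. The lists were chosen with earlier results of these data known.

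Markers of cell types were set beside these values. Of 10 stromal and mesenchymal miRNAs 5 were detected on any of the 6 arrays and 4 were tested, with a median difference of 0.07. Their summed scaled signal was 787 to 1129 at 0.5 Gy and 627 to 1144 at 1 Gy. Of 7 myeloid markers miR-223-3p and miR-342-3p were detected, at -0.29 and -0.28, with sums of 46.7 to 142 and 55.9 to 62.2. miR-142a, a marker of all blood cells, was detected on none. Of 4 lymphoid markers miR-181a-5p and miR-181b-5p were detected, at -0.03 and -0.09, with sums of 198 to 399 and 189 to 306. Erythroid and platelet, endothelial, muscle, epithelial, liver and neuronal markers were detected on none of the 6 arrays. Summed signal without detection still reached 382 at 0.5 Gy and 162 at 1 Gy for muscle and 273 and 97.5 for erythroid and platelet markers, above the myeloid sums. It reached 93.0 and 19.6 for epithelial, 68.4 and 17.3 for neuronal and 0.835 and 1.74 for endothelial markers, and was 0 for liver. These levels give no cell type shares, and their part in the dose differences was not tested.

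Among the 10 miRNAs of highest mean signal, those outside the miR-3473 family, miR-3963, miR-6366 and miR-3960 had small mean differences between the doses. These miRNAs were detected on all 9 arrays, and arrays were scaled on probes that all 9 arrays detected. Their own probes can thus be part of the scaling, and its part in these small differences was not tested. miR-1224-5p differed by -0.03 (SE 0.40), miR-5126 by -0.01 (SE 0.38), miR-8117 by 0.13 (SE 0.38) and miR-8110 by -0.29 (SE 0.40). miR-1224-5p read 11.11, 10.84 and 11.27 at 0.5 Gy and 11.27, 10.99 and 10.89 at 1 Gy. After the scaling, its range over all 6 arrays was under 0.5. The 95% interval of its difference ran from -0.995 to 0.940 (limma). Probes of different miRNAs respond differently, so the order of signals is no order of amounts.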

How the data were processed

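RNA of 9 samples was hybridised to one-colour (Cy3) Agilent mouse miRNA arrays. Each deposited scanner file holds spot intensity values of 1 array from Agilent Feature Extraction 11.5.1.1, background-subtracted and detrended per the file headers, with no scaling from array to array. The headers name an older mouse build than the gene table used. Other deposited columns are marks of 0 or 1 per spot for outliers, saturation and signal above background. The series table was not used, since its 9 value columns match no sample title.

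Spots marked as outliers were dropped, and none was saturated. Processed intensity was averaged per probe, divided by each array's 75th percentile of the 45 probes that all 9 arrays detected, summed per miRNA, raised to a floor of 11.5 scaled units (1st percentile of detected values) and taken to log2. Tests used lmFit and eBayes of limma 3.58.1 (R 4.3.3), two-sided, with Benjamini-Hochberg adjustment over 205 miRNAs. The number of arrays limits the precision. Samples were grouped by title. The members and lists were chosen with earlier results of these data known. Named are miRNAs past the threshold, the 10 of smallest p, the 10 with the largest of the smallest pair differences of one sign, the 10 of highest signal, miRNAs detected at one dose alone, and up to 4 members per list. Sequences come from RefSeq (GRCm38.p6), which matched 1608 of 1881 miRNAs, 183 of the 205 tested and 14 of 17 named ones; miR-6378, miR-7219-5p and miR-3960 are named only. The fit was checked on simulated data with strong pairing by number and less noise than here, so the check gives no rate of missed or false calls for these arrays.

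Arrays 1 and 3 of both doses share a slide and arrays 2 share another, with same-numbered arrays side by side, per the file headers. Deviations of same-numbered arrays from the dose means correlated at 0.95, 0.92 and 0.72 for numbers 1, 2 and 3. Array 3 of 0.5 Gy correlated more with array 2 of 1 Gy (0.86) than with its own number. Array 2 of 0.5 Gy correlated with array 3 of 1 Gy at 0.69, so the numbers do not separate arrays 2 from 3. Deviations within a dose balance out, so with array 1 apart at both doses they cannot show whether numbers 2 and 3 are pairs. The block took the numbers as pairs all the same, although the labels name no shared culture, and the blocked calls rest on this. Alternatives changed the scaling, background, probe summary, filter, floor, variance model, blocks and arrays used.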

Additional observations from a re-analysis of the deposited data

How the results depend on the processing

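Of 40 alternatives, 36 kept 0 called miRNAs. The others were blocked fits: 3 with the filter on all arrays of either dose, 2 with detection on all 6, 3 with a trended and robust variance and 4 without replicate 1. With the replicate block and both the filter and the variance model unchanged, 0 of 205 passed, and the block changed no other call of a named miRNA. Leaving out single arrays or pairs of equal number without the block gave 0 to 0 called. miR-5622-3p turned to -0.027 and miR-7036a-5p to -0.0066 when scaled on all probes, with or without the block, miR-6937-5p to 0.48 after quantile normalization and miR-7219-5p to -0.029 after normexp, likewise in both fits. miR-467f turned to 0.50 with the total gene signal and miR-7036a-5p to -0.11 with array weights, whose fit stopped before it converged. With arrays left out miR-7036a-5p ran from -0.032 to 0.79, lowest without array 2 of 1 Gy. The causes were not tested. miR-3473b, miR-7005-5p, miR-3963, miR-6378 and miR-6366 kept their sign in 40 of 40 alternatives and miR-3473a in 38 of 38. Relative to the median of all tested miRNAs, miR-3473b stood at 1.19, at 1.48 scaled on all probes and at 1.35 after normexp. The median of the miR-3473 family ran from 0.24 to 1.49 and kept its sign in 40 of 40. Other list medians lost their sign in 1 (Sfmbt2, miR-17) to 13 (DNA damage) of 40. Normexp was run on the median spot signal, as no mean was used here. Within the slide that holds arrays 1 and 3, 0 of 249 passed, with miR-3473b at 1.01 and miR-7005-5p at 0.75. With no filter 13.1% of 985 miRNAs were higher at 1 Gy. On the arrays numbered 1, 69 of the 205 miRNAs lay at the floor at both doses.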

Other observations

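Among the miRNAs tested, 25 fell into 9 groups of 2 or more that share a seed, and 2 of these groups had a median difference over 0.5 in size. One holds miR-3473b and miR-3473e. The other holds miR-3547-5p and miR-6368, with a median of 0.65. miR-3547-5p read 3.52, 4.90 and 4.61 on arrays 1, 2 and 3 of 0.5 Gy and 3.52, 6.65 and 4.97 on those of 1 Gy. miR-6368 read 3.52, 5.55 and 5.78 and then 3.52, 7.19 and 5.96. In both, arrays 1 lay at the floor and most of the difference came from arrays 2 (1.75 and 1.64), and neither passed the test (limma adjusted p = 0.999). The other seed groups had medians from -0.19 (miR-125a-5p and miR-125b-5p) to 0.06 (miR-130a-3p and miR-721). Within the last group the members differed, miR-721 by 0.30 and miR-130a-3p by -0.18.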
